A study of Homo sapiens with 9 samples.

Results

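The CDK inhibitors are the 7 genes CDKN1A, CDKN1B, CDKN1C, CDKN2A, CDKN2B, CDKN2C and CDKN2D, taken as the CIP/KIP and INK4 families by name and not by their expression. All 7 were found among the 19869 genes measured in H460-ERT2-RUNX3-K94/171R cells. In the table shared by H460-vec and H460-ERT2-RUNX3 cells, which lists 24331 loci by identifiers without symbols, only CDKN2C could be identified. The lines derive from NCI-H460, a human large cell lung cancer line from a pleural effusion that the study describes, among other features, as having active K-RAS, inactive RUNX3 and unmutated ARF. H460-vec is the control line, which the sample labels call H460 and give the genotype RUNX3 inactivation. H460-ERT2-RUNX3 (label: ERT2-RUNX3 WT insertion) carries wild-type RUNX3 fused to ERT2, a form of the estrogen receptor ligand-binding domain that keeps the fusion out of the nucleus until 4-OHT is bound. H460-ERT2-RUNX3-K94/171R (label: ERT2-RUNX3 MT insertion) carries the fusion with Lys-94 and Lys-171 replaced by arginine, a mutant that does not bind BRD2. All lines are stable transfectants, and the sources used here do not say whether each is 1 clone. After 24 h without serum, cells were harvested untreated (0 h, labelled control) or after 8 or 16 h in 10% serum and 1 μM 4-OHT, the inducer (labelled TAM). The third K94/171R time is headed 24 h in 1 part of the study's supplement and 16 h in the sample title, and 16 h was used. Serum and 4-OHT were given together, so their effects cannot be told apart within a line. There was 1 library per line and time, 9 in all, so no value below has a replicate error and no difference was tested.

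CDK inhibitors slow or stop the cell cycle by binding cyclin-dependent kinases. The CIP/KIP proteins p21 (CDKN1A), p27 (CDKN1B) and p57 (CDKN1C) bind cyclin–CDK complexes, mainly those of CDK2, and p21 and p27 can also help cyclin D and CDK4 to assemble. The INK4 proteins p16 (CDKN2A), p15 (CDKN2B), p18 (CDKN2C) and p19 (CDKN2D) bind CDK4 and CDK6 alone and keep D-type cyclins off. CDKN2A also encodes ARF from another first exon and reading frame. ARF binds and blocks the ubiquitin ligase MDM2. The balance of these inhibitors and the cyclins contributes to passage of the restriction point. The study asked how RUNX3 acts on chromatin at genes tied to that point.

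Levels are FPKM, fragments scaled to transcript length and sequencing depth, as the authors deposited them, and can be compared between genes because they are scaled by length. A change is the log2 ratio of FPKM + 0.05 to that at 0 h in the same line. A gene was called when its change was at least 2 in size, the fold threshold the study used. The study also set limits on FDR and p for its genes, which the calls here do not have. Each library had 10961 to 11367 genes at FPKM 1 or more, called expressed here. Read numbers are unknown. The most common ratio between low FPKM values put the relative depth of the libraries at 0.964 to 1.17 within the shared table. Ratios far from 1.00 were left out beforehand, so this estimate could not have shown a large difference in depth. The estimate for H460-ERT2-RUNX3 at 16 h rested on only 34 genes. For the K94/171R libraries the same estimate, with the same limit, gave ratios near 1.00, from only 22 genes each. Summed FPKM reached 780952 for H460-ERT2-RUNX3 at 16 h, while the remaining 8 libraries spanned 554359 to 641519. In K94/171R cells, the keratins KRT8 and KRT18 of simple epithelia stood at FPKM 569 to 698 and 353 to 593, while the epithelial adhesion genes EPCAM and CDH1 did not exceed 0.313. The summed level of 3 lung epithelial markers was at most 0.143, that of 2 blood markers at most 0.0155, and that of 3 fibroblast markers was 5.86 to 8.92, nearly all COL3A1. RUNX3, which the construct encodes, was at FPKM 2.12, 0.712 and 2.11 at 0, 8 and 16 h, and ESR1, the source of ERT2, at 3.22, 2.04 and 3.61. Whether reads of these genes come from the construct cannot be told from gene totals.

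Of the 7 genes, 4 were expressed at FPKM of at least 1 in K94/171R cells and 3 were at or near 0. CDKN1A had by far the highest level of the family, followed by CDKN2C, CDKN1B and CDKN2D in that order at all 3 times. All 4 were lowest at 8 h. By 16 h CDKN1A and CDKN1B stood above their 0 h level and CDKN2C and CDKN2D below it. Some of these differences were small. From 8 to 16 h, 45.2% of expressed genes had a change as high as that of CDKN2C. For CDKN1B at 16 h against 0 h the share was 28.9%.

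**Figure D1:**
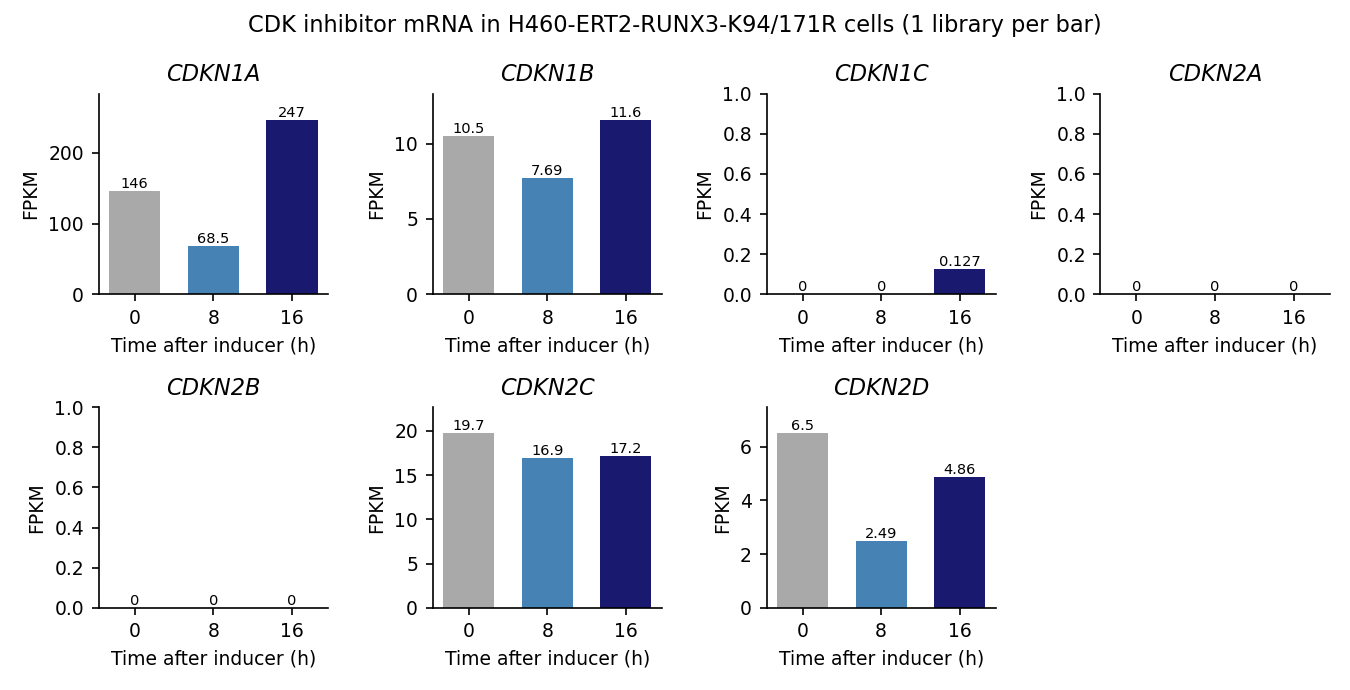
Level of each CDK inhibitor mRNA (FPKM, vertical axis, own scale per gene, starting at 0) against hours of 4-OHT in the K94/171R line, with 1 library per bar. CDKN1A, CDKN1B and CDKN2D dip at 8 h, CDKN2C moves little, and CDKN2A and CDKN2B are listed at 0 throughout.

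CDKN1A (ENSG00000124762) lies on the plus strand of chromosome 6, at 36644237 to 36655114 of GRCh37, the build named hg19 in the files' notes. It encodes p21, which stops the cell cycle after DNA damage and other stress. Its mRNA stood at FPKM 146 in starved cells, 68.5 after 8 h and 247 after 16 h. Less RNA per cell and fewer cells expressing a gene cannot be told apart in these bulk libraries. It was therefore lowest 8 h after serum and highest at 16 h, above the starved cells. It ranked 558th of 11119 expressed genes at 0 h, 1304th of 10961 at 8 h and 311th of 11140 at 16 h. The change was -1.09 at 8 h and 0.76 at 16 h, and from 8 to 16 h it was 1.85, a ratio of 3.60. Of the genes expressed in either library compared, 2.06% had a change at least as low at 8 h, 2.87% one at least as high at 16 h, and 0.488% one at least as high from 8 to 16 h. These comparisons share libraries, so a low value in the 8 h library enters both the first and the last of them.

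CDKN1A held 79.9% of the summed FPKM of the 7 inhibitors at 0 h, 71.7% at 8 h and 87.9% at 16 h. The sum was 183, 95.6 and 280 at these times, and the summed FPKM of their partners CDK1, CDK2, CDK4 and CDK6 was 359, 376 and 438. The ratio of inhibitor to kinase mRNA was thus 0.508, 0.254 and 0.640. These are mRNA levels, and p21 and p27 protein is also set by degradation.

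CDKN1B (ENSG00000111276; chromosome 12, 12838432 to 12875303, plus strand) encodes p27, which accumulates in quiescent cells and is removed after mitogens mostly by degradation of the protein. Its mRNA was at FPKM 10.5, 7.69 and 11.6 at 0, 8 and 16 h, changes of -0.45 and 0.14. CDKN1A exceeded CDKN1B 13.9-fold in FPKM at 0 h, 8.91-fold at 8 h and 21.3-fold at 16 h. The dip at 8 h was shallow, and 11.9% of expressed genes had a change as low.

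CDKN1C (ENSG00000129757; chromosome 11, 2904443 to 2907005, minus strand), the imprinted gene of p57, was listed at 0 at 0 and 8 h and at FPKM 0.127 at 16 h. A value so low rests on few reads, and no fold is given against a level of 0.

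CDKN2C (ENSG00000123080; chromosome 1, 51426417 to 51440306, plus strand) encodes p18 and was the most abundant INK4 mRNA, with 75.2% to 87.2% of the INK4 sum. In K94/171R cells its level was nearly flat, at FPKM 19.7, 16.9 and 17.2, changes of -0.22 and -0.20. Of expressed genes, 25.3% at 8 h and 24.7% at 16 h had a change as low.

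CDKN2D (ENSG00000129355; chromosome 19, 10677136 to 10679735, minus strand) encodes p19, whose mRNA oscillates with the cell cycle in many cells. It stood at FPKM 6.50, 2.49 and 4.86, changes of -1.37 at 8 h and -0.42 at 16 h. CDKN2D had the lowest change of the family at 8 h, when 1.11% of expressed genes were as low or lower, and its level at 16 h lay between the others. The ratio of CDKN2C to CDKN2D was 3.03, 6.78 and 3.54.

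By the threshold of 2, 0 of the 7 inhibitors were called in K94/171R cells at 8 h, where 1.49% of all genes were, and 0 at 16 h, where 1.32% of all genes were. With a threshold of 1, CDKN1A and CDKN2D were lower at 8 h, 2 of 7, against 4.53% of all genes that were lower by that much and 7.31% that differed by it in either direction. At 16 h only CDKN1C passed 1, on a level listed at 0 before, against 3.11% of all genes higher by that much and 6.47% in either direction. The median change of the 4 expressed inhibitors was -0.77 at 8 h and -0.03 at 16 h, and that of all expressed genes 0.0060 and -0.011. With 1 library per time, a difference between libraries unrelated to time cannot be told apart from the time itself.

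CDKN2A and CDKN2B, the INK4 genes of chromosome 9, were both listed at 0 in all 3 K94/171R libraries. CDKN2A (ENSG00000147889) lies at 21967751 to 21995300 of GRCh37 and CDKN2B (ENSG00000147883) at 22002902 to 22009304, both on the minus strand, 7.60 kb apart. The FPKM of CDKN2A covers transcripts of p16 and of ARF, which share their later exons, so neither had a level above 0. The antisense gene CDKN2B-AS1 overlaps CDKN2A by 1163 bases and the whole 6403 bases of CDKN2B, and it was not among the genes of the table. An FPKM of 0 can be a failed estimate, and the depth needed for a limit is unknown.

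Genes around the pair did have mRNA. MTAP, a methionine salvage enzyme that ends 30.1 kb before CDKN2A, stood at FPKM 19.1, 23.8 and 13.7 at 0, 8 and 16 h. KLHL9, a ubiquitin ligase adaptor at a distance of 632 kb on the same side, was at 11.9, 11.4 and 11.6. FOCAD was at 5.79 to 6.77 and MLLT3 at 4.27 to 6.01, both farther out on that side, and IFNE, an interferon gene between KLHL9 and MTAP, was at 0.678 to 1.28. On the far side of CDKN2B, DMRTA1 and ELAVL2 did not exceed FPKM 0.321. Among these listed genes, the level was thus 0 at CDKN2A and CDKN2B and under 1 at DMRTA1 and ELAVL2. Other genes of the region were not examined. RNA levels alone cannot show whether the cells carry the DNA of these genes. In the lines with a RUNX3 fusion, the study amplified the ARF promoter by PCR from ChIP and input samples. It also probed ARF protein there by immunoblot. It reports active histone marks enriched at that promoter in induced cells with wild-type RUNX3, but not in those with the mutant. How those assays relate to the levels of 0 was not tested.

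**Figure D2:**
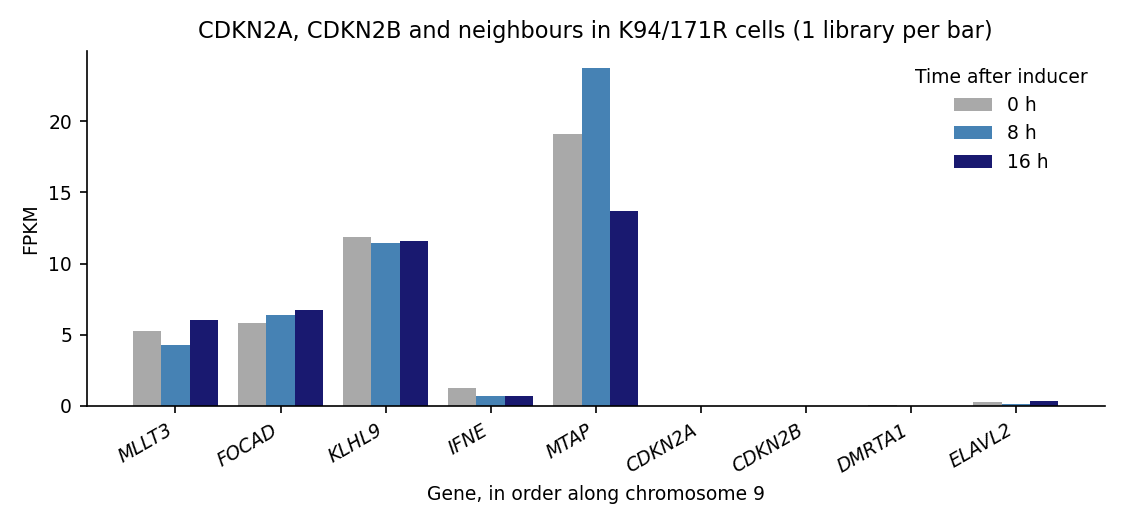
Level (FPKM, vertical axis from 0) of CDKN2A, CDKN2B and 7 neighbouring genes in H460-ERT2-RUNX3-K94/171R cells at 0, 8 and 16 h, in their order along chromosome 9, with 1 library per bar. MTAP, next to CDKN2A, stands at 13.7 to 23.8 while CDKN2A and CDKN2B are listed at 0.

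The study deleted a RUNX site upstream of ARF in another line, HEK293, and also assayed the ARF promoter by ChIP in the H460 lines with a RUNX3 fusion. The place of that site in the reference is therefore shown, although the gene was listed at 0 here. The letters GACCGCA occur 1 time within 2000 bases upstream of the ARF start at 21994391. They lie on the minus strand at 21995865 to 21995871, 1480 bases upstream of that start, which belongs to 1 annotated transcript. On this strand the CDKN2A gene as annotated begins nearer to the letters, at 21995300. The study gives a slightly shorter distance, from its own transcription start. The 47 bases of GRCh37 around them (chr9:21995845-21995891, minus strand, 5′ to 3′) are given with these letters in capitals.
ARF upstream: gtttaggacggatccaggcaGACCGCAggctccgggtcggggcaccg

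CDKN2C was the only inhibitor that could be followed in all lines, and its levels differed between them after 0 h. Whether the lines differed in the other inhibitors could not be seen. Starved cells of all 3 lines had nearly the same level, FPKM 19.3 in H460-vec, 18.4 in H460-ERT2-RUNX3 and 19.7 in K94/171R, the last from a table that was normalised separately. H460-vec then stood at 14.9 at 8 h and 13.0 at 16 h. H460-ERT2-RUNX3 stood at 6.78 and 0.593, by far the lowest values of the 9 libraries. The K94/171R values were 16.9 and 17.2. Because of the separate normalisation, their small difference in level from H460-vec cannot be interpreted.

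**Figure D3:**
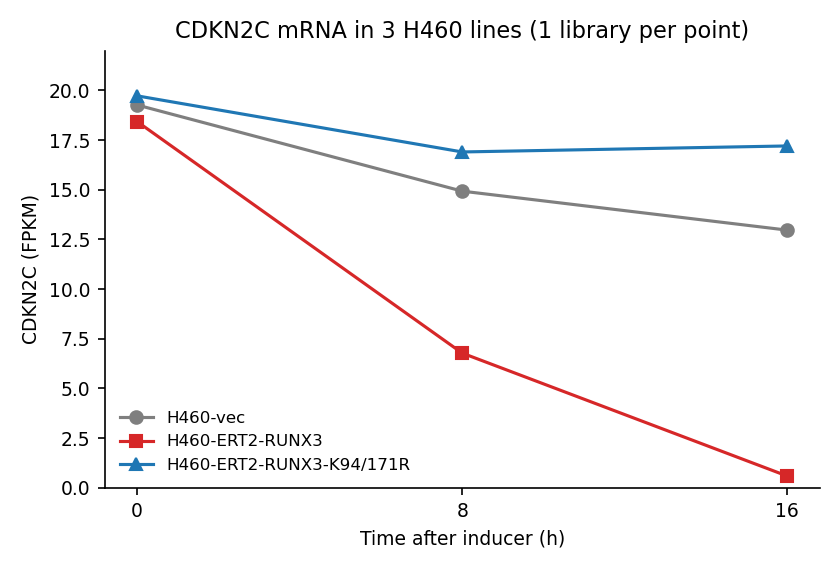
CDKN2C level (FPKM, vertical axis from 0) against hours of 4-OHT in the control line and in the lines with wild-type and K94/171R RUNX3, with 1 library per point. All start at 18.4 to 19.7, and they end at 13.0, 0.593 and 17.2 in that order.

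The log2 change of CDKN2C in H460-ERT2-RUNX3 cells was -1.44 at 8 h and -4.85 at 16 h, a level 31.1-fold lower than at 0 h. In H460-vec cells it was -0.37 and -0.57. Set against H460-vec at the same time, the log2 difference in level was -4.34 at 16 h (21.9-fold lower), -1.13 at 8 h and -0.06 at 0 h. The change in H460-ERT2-RUNX3 minus that in H460-vec was -1.07 at 8 h and -4.28 at 16 h. The step from 8 to 16 h, a change of -3.41, was larger than that from 0 to 8 h.

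CDKN2C passed the threshold of 2 in H460-ERT2-RUNX3 at 16 h, as did 5.11% of all genes in the lower direction. Requiring also a change at least 2 below that in H460-vec, it was 1 of 1018 genes, 4.18% of the table. The change was among the lowest of that library: 64 of 11930 expressed genes, 0.536%, had one as low. At 8 h the share was 1.59%, and in H460-vec it was 9.14% at 8 h and 3.70% at 16 h. The H460-ERT2-RUNX3 library at 16 h also had the highest FPKM sum, and with libraries rescaled to the same sum the change there was -5.31.

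Among the nearest named genes in the shared table, ELAVL4 before and C1orf185 after CDKN2C were at or near 0 in all 6 libraries. RNF11, the next gene with a symbol and named here after its values were seen, stood at FPKM 13.3, 22.1 and 43.4 in H460-ERT2-RUNX3. In H460-vec it was at 12.2, 14.4 and 13.1. Its change at 16 h in H460-ERT2-RUNX3 was 1.70 and not negative. Only plus-strand loci of chromosome 1 had a symbol, so unnamed genes may lie nearer to CDKN2C than these.

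Among the 5 genes with a symbol whose levels were most like those of CDKN2C across the 6 libraries were EXO1, C1orf112, VANGL1 and ZNF684, with Pearson's r of log2(FPKM + 0.05) of 0.994, 0.994, 0.993 and 0.992. This is a description over 6 libraries that share 2 lines and their 0 h cells. Symbols were at hand only for plus-strand loci of chromosome 1, so unnamed genes may be more alike. EXO1, a nuclease of DNA repair and recombination, was at FPKM 126, 68.0 and 17.4 in H460-ERT2-RUNX3 and 138, 106 and 84.9 in H460-vec. VANGL1, a planar cell polarity protein, was at 9.07, 6.36 and 1.99 in H460-ERT2-RUNX3 and 9.28, 8.47 and 9.26 in H460-vec. Such profiles were common: of 604 genes with a symbol and FPKM of at least 1, 73 (12.1%) had an r of at least 0.95, as did 1293 of 12344 genes in all (10.5%). Without the H460-ERT2-RUNX3 library at 16 h, a setting chosen after seeing the data, the r of these 4 genes was 0.917 to 0.952. In H460-ERT2-RUNX3 at 16 h CDKN2C was lower than each of the 4, relative to the 0 h level of the gene in H460-vec.

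**Figure D4:**
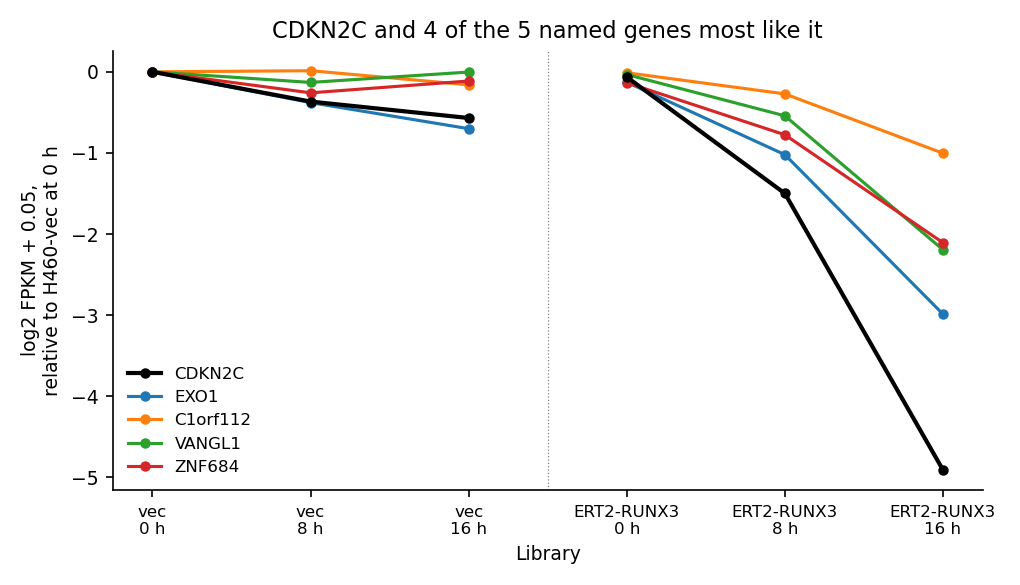
Log2 level of CDKN2C and 4 of the 5 named genes most like it, in H460-vec (left) and H460-ERT2-RUNX3 (right) (horizontal axis), each set to that gene's H460-vec level at 0 h, with 1 library per point. CDKN2C has the lowest values at 8 and 16 h in H460-ERT2-RUNX3, and every profile shown declines there.

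The promoters of CDKN1A, which had the highest level, and of CDKN2C, the member followed in all lines, are shown, since they hold known control sequences. RefSeq promoters (GRCh38.p14, 300 bases around each start) were given for 6 of the members, at 9 starts, with none for CDKN1C. The GC box GGGCGG, bound by SP1-type factors, was found on either strand in 7 of the 9, and in 45.0% of 35116 promoters. E2F-like letters, searched on both strands as TTCGCGC and in the forms TTGGCGC and lastly TTCCCGC, were found in 1 of the 9, at CDKN2C, and in 11.0% of all promoters. The RUNX letters TGTGGT and the variant TGCGGT, on both strands, were found in 0 of the 9 and in 19.6% of all promoters, which says only that these letters are not in these windows. GC box and E2F-like letters, none of which overlap each other here, are in capitals, and neighbouring GC boxes can share bases. The CDKN1A window is chr6:36678464-36678763 (plus strand, 4 GC boxes) and the CDKN2C window chr1:50968456-50968755 (plus strand, 6 GC boxes and 2 E2F-like matches). The other CDKN2C starts held 1 GC box and 0.
CDKN1A: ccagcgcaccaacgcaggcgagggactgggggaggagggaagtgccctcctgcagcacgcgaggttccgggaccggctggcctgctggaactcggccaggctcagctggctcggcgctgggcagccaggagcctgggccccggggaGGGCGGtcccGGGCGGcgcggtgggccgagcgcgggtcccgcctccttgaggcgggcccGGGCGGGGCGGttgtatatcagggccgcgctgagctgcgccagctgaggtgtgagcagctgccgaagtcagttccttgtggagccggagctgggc
CDKN2C: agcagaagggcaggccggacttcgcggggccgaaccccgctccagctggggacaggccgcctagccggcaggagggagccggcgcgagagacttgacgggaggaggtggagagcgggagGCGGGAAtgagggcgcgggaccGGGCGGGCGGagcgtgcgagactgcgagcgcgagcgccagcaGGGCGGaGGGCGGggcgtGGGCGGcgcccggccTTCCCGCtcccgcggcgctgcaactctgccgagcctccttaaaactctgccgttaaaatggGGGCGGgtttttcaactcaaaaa

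The partners and controllers of the inhibitors were followed in K94/171R cells by 5 lists. The CDKs and cyclins that the inhibitors bind had 10 of 11 genes at FPKM of at least 1, of which 0 changed by 1 or more in size at either time, as 3.76% of expressed genes did at 8 h and 2.74% at 16 h. Their median change was 0.15 at 8 h, with 8 of 10 above 0, and 0.02 at 16 h. Within this list CCND1 was at FPKM 43.7, 47.7 and 46.3 and CDK1 at 220, 207 and 307, and the E cyclins were the lowest at 16 h, with CCNE2 at 7.57, 11.0 and 3.98 (change -0.92). Genes of these lists with a change under 1 are examples picked after their values were seen.

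The 11 pocket proteins and E2F factors had a median change of 0.31 at 8 h, with 9 above 0, and -0.07 at 16 h, and 0 passed 1. The pocket protein RBL2 (p130), which holds E2F target genes silent in quiescent cells, was at FPKM 16.6, 11.5 and 18.0, and E2F1 at 19.0, 28.1 and 14.4. RBL2 was thus low at 8 h like the inhibitors, and E2F1 high. Of the 12 ubiquitin ligase genes that turn over p21 and p27, 0 passed 1 at either time. Their medians were 0.08 and -0.08, and SKP2, the subunit that recognises p27, was at 25.3, 27.9 and 23.7.

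Among 17 transcriptional regulators of the inhibitor genes, 15 had FPKM of at least 1 and 1 was called at 8 h, ID1 (background 1.49%). ID1, a repressor of CDKN2A transcription that serum and BMP signals induce, was at FPKM 13.3, 80.6 and 33.8, changes of 2.59 and 1.34. With a threshold of 1, FOXO3 (1.94, 0.862 and 1.94; change -1.13 at 8 h), a starvation-activated factor that drives CDKN1B, and RUNX3 (change -1.51) were lower at 8 h, by a rule that 2.49% of expressed genes met, and at 16 h the change was -0.01 for RUNX3 and smaller still in size for FOXO3. RUNX3 was low in the same library as CDKN1A and CDKN2D, and its part in their levels was not tested. MDM2, named after its values were seen, was at 31.6, 21.3 and 42.8, lowest at 8 h and highest at 16 h as CDKN1A was. MYC, a repressor of CDKN1A, was at 51.9, 69.2 and 52.7.

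**Figure D5:**
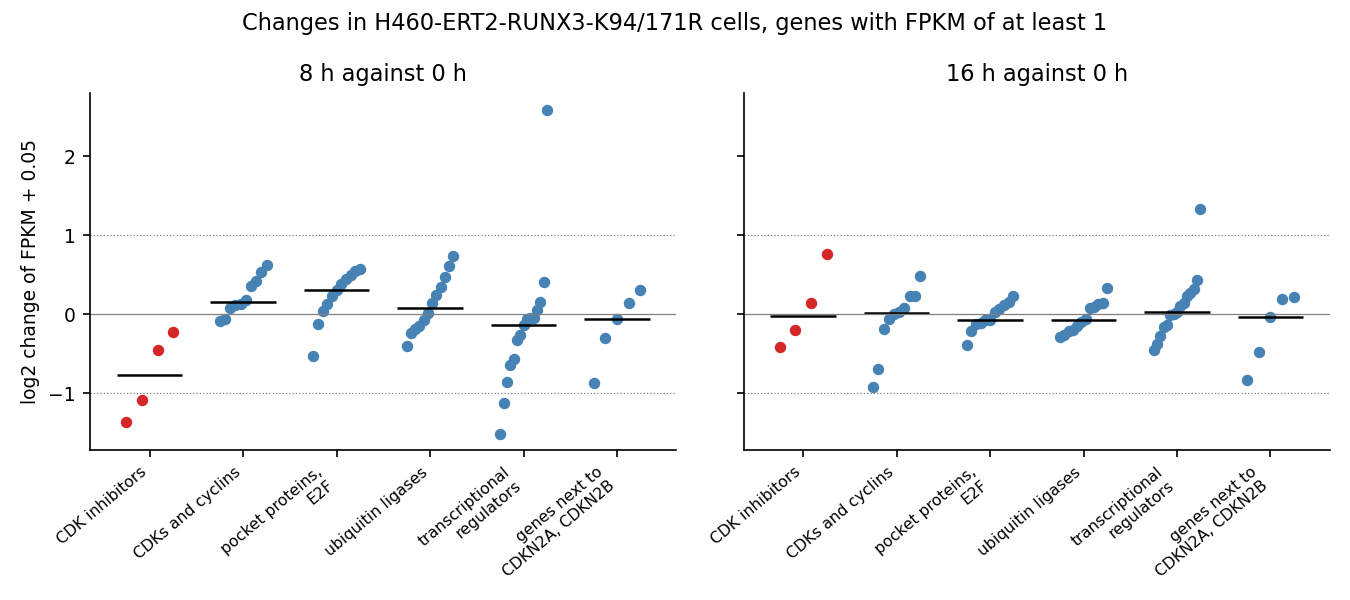
Log2 change of FPKM + 0.05 (vertical axis) at 8 h (left) and 16 h (right) against 0 h in H460-ERT2-RUNX3-K94/171R cells for the 4 expressed CDK inhibitors and 5 lists of related genes (horizontal axis), with 1 point per gene of FPKM of at least 1, a black line at the median and dotted lines at -1 and 1. The inhibitors have a median of -0.77 at 8 h and -0.03 at 16 h, and ID1 is the highest point in both panels.

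Of these lists, 5 genes had a symbol in the shared table. CDC20, the mitotic activator of the anaphase-promoting complex, which degrades p21, was at FPKM 78.0, 48.3 and 11.9 in H460-ERT2-RUNX3 and 74.9, 87.2 and 71.6 in H460-vec. DTL, which directs p21 to degradation in S phase, was at 28.4, 15.0 and 10.3 in H460-ERT2-RUNX3 and at 28.2, 28.7 and 22.5 in H460-vec. Both were lower over time in H460-ERT2-RUNX3, as CDKN2C was. CKS1B, the cofactor of SKP2 for p27, was at 266, 393 and 349 in H460-ERT2-RUNX3 and 293, 299 and 336 in H460-vec. MDM4, a relative of MDM2, was at 5.98, 9.21 and 19.8 in H460-ERT2-RUNX3 and 5.58, 6.29 and 6.36 in H460-vec. TP73 did not exceed 0.113 in either line. Only CDC20 passed 2 among these genes, with a change of -2.71 at 16 h, where 5.11% of all genes were lower by that much.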

How the data were processed

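Total RNA of 3 H460 lines at 0, 8 and 16 h was sequenced from TruSeq Stranded mRNA libraries on a NextSeq500. The authors used Cutadapt for trimming, aligned reads to hg19 by STAR (version 2.5.0 per the submitters' processing notes) and computed levels with Cuffdiff (2.2.1). They deposited FPKM per gene, in 2 tables that were made and normalised separately. The gene annotation and the use of strand in counting are not given in the sources used here. Of the K94/171R identifiers 19494 matched a symbol without their version. For the shared lines 1144 loci, all on the plus strand of chromosome 1, were named through the identifiers of the study. Changes were computed within a table with a pseudocount of 0.05, which understates changes of low genes, in Python 3.11.15 (pandas 2.3.3, numpy 2.4.6). The calculation was run on simulated data with set changes beyond the threshold, which checks the code and not the noise between libraries. FPKM gives no counts, so no interval, no count test and, with 1 library per group, no test could be made.

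The members and lists were chosen with earlier results of these data known. Named were all members, up to 4 genes per list with a change of at least 1 and FPKM of at least 1, list genes with a symbol in the shared table, the genes next to CDKN2A, and the 5 genes most like CDKN2C. Some of these values are not reported here. Gene positions are from GENCODE v44 on GRCh37. Alternatives were a pseudocount of 1, 2 rescalings, a threshold of 1 and a minimum FPKM of 1.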

Additional observations from a re-analysis of the deposited data

Results flagged for a closer look

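With 1 library per group, a gene followed in all 3 lines was picked out when its change in H460-ERT2-RUNX3 cells had the opposite sign to that in another line at the same time. None of these differences was tested. At 8 h DTL had changes of -0.92 in H460-ERT2-RUNX3, 0.03 in H460-vec and 0.61 in K94/171R, differences of -0.95 and -1.54. CDC20 had -0.69, 0.22 and 0.47 at 8 h, differences of -0.91 and -1.16. At 16 h CDC20 had -2.71 in H460-ERT2-RUNX3 and 0.12 in K94/171R, a difference of -2.83. CKS1B had 0.56 in H460-ERT2-RUNX3 and -0.18 in K94/171R at 8 h, a difference of 0.75, and 0.39 and -0.05 at 16 h, a difference of 0.45. MDM4 had 0.62 and -0.05 at 8 h, a difference of 0.67. TP73, at FPKM of at most 0.201 in every library, had -0.58 in H460-ERT2-RUNX3, 0.23 in H460-vec and 0.22 in K94/171R at 8 h, differences of -0.81 and -0.80. CDKN2C had negative changes in all 3 lines at both times.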

How the results depend on the processing

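The 8 changes of expressed inhibitors in K94/171R cells kept their direction under a pseudocount of 1 and both rescalings, moving by at most 0.26, 0.092 and 0.011 on the log2 scale. With a threshold of 1 in place of 2, 2 members were called at 8 h and 1 at 16 h, 3 transcriptional regulators at 8 h and 2 at 16 h, and 1 gene next to CDKN2A at 16 h, since a lower threshold takes in smaller changes. Of all genes 7.31% passed this threshold at 8 h and 6.47% at 16 h. The 16 h calls include TP73 and DMRTA1, both under FPKM 1, and with FPKM of at least 1 only 1 regulator, ID1, and 0 neighbours passed at 16 h. With a pseudocount of 1, CDKN2C changed at 8 h by -0.35 (H460-vec) and -1.32 (H460-ERT2-RUNX3), a difference of -0.97, and at 16 h by -0.54 and -3.61, a difference of -3.07. After equalising the summed FPKM of libraries, the 8 h changes were -0.35 and -1.61, a difference of -1.26, and the 16 h changes -0.68 and -5.31, a difference of -4.64. Rescaled by the median ratio to 0 h, the 16 h changes were -0.59 and -4.86. The small difference of CDKN2C between the lines at 0 h changed sign under the rescaling to the same sum, to 0.040, and the cause was not tested. No paired analysis was possible because each group has 1 library. Depth limits the genes of low FPKM most, CDKN1C among them.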
